A study of Mus musculus with 6 samples.

Results

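Mesenchymal nuclei of the day 5 fracture callus were compared with those of the day 3 callus, gene by gene. The nuclei were chosen by measured values. To be kept, a barcode needed between 200 and 5000 detected genes, mitochondrial transcripts below 2% and ribosomal protein transcripts below 1.5% of its UMIs, at least 2 UMIs in all of Col1a2, Col3a1, Prrx1, Pdgfra and Postn, no UMI of Ptprc or Pecam1, and under 1% of UMIs from Ttn, Neb, Ckm and Acta1. A UMI is a molecular tag that counts 1 RNA molecule. These limits kept 1792 of the 8002 barcodes of the 3 libraries, out of 13551 in the series, with 150 in day 3 replicate 1, 334 in day 3 replicate 2 and 1308 at day 5. Just at the limit, 17, 31 and 71 of the kept nuclei held exactly 2 mesenchymal UMIs, and 29, 29 and 83 barcodes were left out with exactly 1.

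The study sequenced single nuclei (10x Genomics, 3′ chemistry) of wild-type C57BL6 mice (C57BL/6ScNj in the study's methods) of 12 weeks, for which males and females were used. Each fracture library was a pool of nuclei from 4 to 9 mice with an open, non-stabilized tibial fracture, whose scraped periosteum was collected together with the hematoma. Day 3 has 2 libraries and day 5 has 1, so no test between the days was made and all intervals given cover counting error only. The uninjured periosteum (2 libraries, 105 and 437 nuclei under the same limits) and day 7 (1 library, 700 nuclei) are shown beside the comparison.

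After a fracture, cells of the periosteum, the thin layer around the bone, gather in the hematoma, divide and lay down a fibrous matrix. In an unstable fracture much of this tissue then turns to cartilage, which is later replaced by bone, while bone also forms directly along the cortex. Cartilage matrix is built of type II, IX and XI collagen fibrils filled with aggrecan, a proteoglycan that link protein fastens to hyaluronan.

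The gated nuclei held 463895, 1631588 and 5922228 UMIs in the order given above, with a median of 2249.5, 3204 and 3382 UMIs per nucleus, and no barcode was shared among the kept nuclei of the 3 libraries. The day 3 libraries stood apart from each other, and 738 of 4445 measured genes (16.6%) differed at least 2-fold between them. In day 3 replicate 2, 64.3% of barcodes with mesenchymal UMIs were removed for Ptprc or Pecam1, against 12.6% in replicate 1 and 25.2% at day 5. Its kept nuclei held the Y-linked gene Uty at 0.613 CPM (its UMIs per 1000000 UMIs of the summed nuclei), against 170.3 CPM in day 3 replicate 1 and 96.4 CPM at day 5, while Xist had 1548, 377 and 2055 CPM in the same order. Y-linked transcripts were thus nearly absent from day 3 replicate 2, and the part of sex in the differences was not tested. Both day 3 libraries were counted with Cell Ranger 7.1.0 and the day 5 library with version 6.0.0, so that version and day cannot be told apart. The label was checked with 14 mesenchymal markers that the limits did not use, among them Col1a1, Dcn and Fn1. Their summed level was 7538, 10460 and 12530 CPM in the kept nuclei. It was 572, 1179 and 1009 CPM in endothelial barcodes of the same libraries and 534, 1054 and 1420 CPM in barcodes with Ptprc. The endothelial values rest on 27, 4 and 47 barcodes and the others on 68, 52 and 82. The endothelial barcodes held at least 2 UMIs in all of Pecam1, Cdh5, Kdr and Flt1 and none of Ptprc. Both kinds of barcodes were chosen to hold no UMI of Col1a2, Col3a1, Prrx1, Pdgfra or Postn. Their low levels of the other mesenchymal markers therefore follow in part from that choice.

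Promoter windows are shown for 3 genes described below, a matrix gene and an enzyme of cartilage and a gene that was lower at day 5. Each of the 3 genes also has a window at another start, not shown, which holds no TGTGGT on either strand. Each is the 250 bases before a RefSeq start (GRCm38.p6), read 5′ to 3′ on the gene's strand, and capitals mark TGTGGT or its reverse complement, the letters of the core bound by Runx factors. Col9a1, which encodes a chain of cartilage type IX collagen, lies on chr1:24177610-24252684 (plus strand, GENCODE M21 on GRCm38). Papss2, which makes the sulfate donor for cartilage proteoglycans, lies on chr19:32595790-32667187 (plus strand). Spp1, which encodes osteopontin, lies on chr5:104435118-104441050 (plus strand).
Col9a1, chr1:24177360-24177609: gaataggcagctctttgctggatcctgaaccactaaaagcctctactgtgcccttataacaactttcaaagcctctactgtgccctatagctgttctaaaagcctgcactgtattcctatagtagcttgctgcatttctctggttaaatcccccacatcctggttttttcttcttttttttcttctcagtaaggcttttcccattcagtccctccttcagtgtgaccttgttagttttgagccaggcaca
Papss2, chr19:32595465-32595714: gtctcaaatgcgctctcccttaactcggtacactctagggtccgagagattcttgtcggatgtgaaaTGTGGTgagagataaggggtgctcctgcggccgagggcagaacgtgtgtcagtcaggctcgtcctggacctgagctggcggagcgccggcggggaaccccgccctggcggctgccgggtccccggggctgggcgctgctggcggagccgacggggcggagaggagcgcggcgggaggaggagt
Spp1, chr5:104434861-104435110: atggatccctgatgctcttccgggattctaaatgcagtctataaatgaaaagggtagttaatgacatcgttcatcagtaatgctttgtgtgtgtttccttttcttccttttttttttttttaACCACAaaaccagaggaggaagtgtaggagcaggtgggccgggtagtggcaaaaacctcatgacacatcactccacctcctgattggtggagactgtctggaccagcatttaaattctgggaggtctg

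Of the genes higher at day 5 (defined below), 140 had 219 such windows, and 10.5% of the windows held TGTGGT on either strand, against 14% of 32851 windows of all genes and 9.51% of 4762 windows of the measured genes. Of the genes lower at day 5, 81 had 109 windows, of which 12.8% held it. ACAATG, letters bound by Sox factors, was in 5.02 and 4.59% of the windows of the higher and lower genes, against 6.49% for the measured genes. TGANTCA, the AP-1 letters, was in 4.57 and 4.59%, against 4.24%. CACGTG, the E-box of the clock factors, was in 6.85 and 9.17%, against 7.90%. A match describes the letters in these windows, and none of the 4 motifs contains another.

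A gene was measured when it reached 50 CPM at day 5 or in the mean of the day 3 libraries, and it is called higher or lower here when day 5 was at least 2-fold above or at most 0.5 times each day 3 library. Of 4445 measured genes, 185 were higher (4.16%) and 113 lower (2.54%), while 1437 lay between the day 3 libraries. Among the higher genes, 41 differed at least 4-fold and 15 at least 8-fold from the nearer day 3 library. Near the threshold, Tsc22d2 (213, 254 and 509 CPM in day 3 replicates 1 and 2 and day 5) was just inside, and Smim14 (104, 42.9 and 207 CPM) just outside. Of the lower genes, Pi15 (79.8, 31.9 and 15.9 CPM) was just inside, and Zfp639 (60.4, 44.7 and 22.5 CPM) just outside.

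The split between higher and lower depended on the scaling. Higher genes made up 62.1% of the called genes, 83.0% with edgeR's TMM scaling, 78.1% with DESeq2's size factors, and 47.7% when the genes described below with Gm42418 were left out of the totals. The median log2 ratio over all measured genes was 0.03, 0.18, 0.13 and -0.10 in the same order. Against day 3 replicate 1 alone 629 genes were higher and 309 lower, and against replicate 2 alone 257 and 424. Each time the level limit used day 5 and that day 3 library alone.

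**Figure D1:**
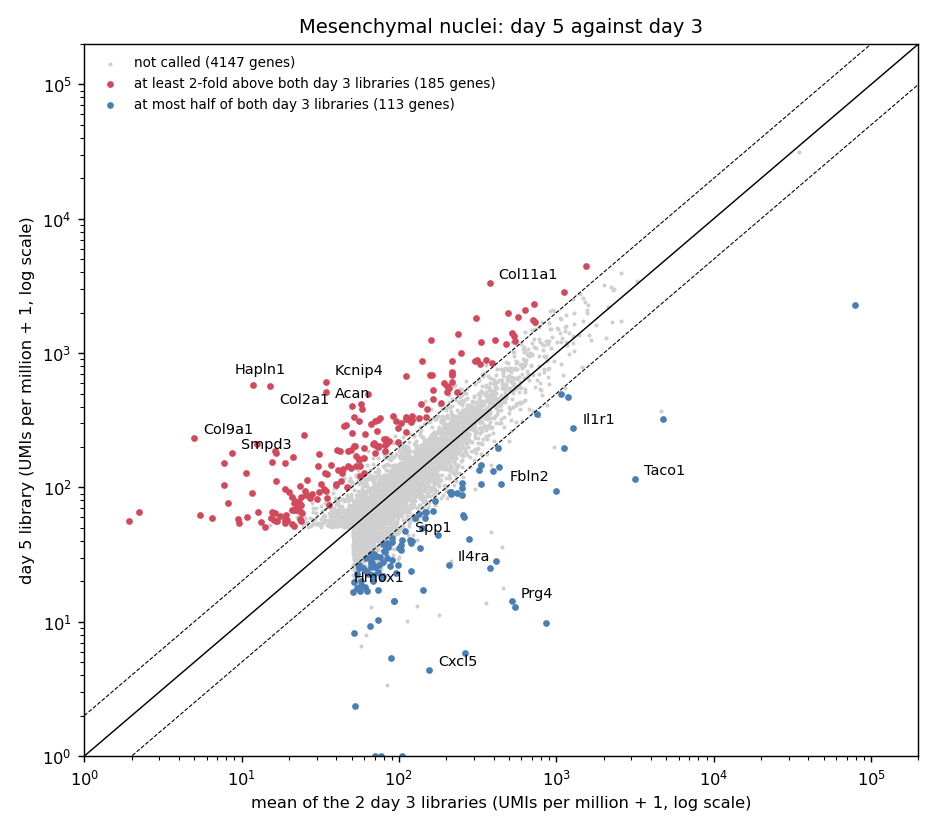
Each point is a measured gene, with the mean of the day 3 libraries on the x axis and day 5 on the y axis, both in CPM plus 1 on log scales. The solid line is equality and the dashed lines 2-fold. The 185 red genes lie above and the 113 blue genes below both day 3 libraries by at least 2-fold, with Hapln1 and Cxcl5 among those farthest from equality.

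Cartilage genes were 7 of the 12 largest differences in the higher direction. Of 36 cartilage genes 24 were measured, of which 20 were higher at day 5 (83.3%, against 4.16% of all measured genes). These shares describe a list chosen with results known, and 13 of the 24 genes, 12 of the higher ones among them, passed the level limit only through day 5. Of the others 8 were higher. In addition 1 was lower, and the median log2 ratio of the list was 2.66 against 0.031 over all genes. Hapln1, which encodes the link protein, had 4.31 and 17.2 CPM in day 3 replicates 1 and 2 and 576 CPM at day 5. The day 5 level was 33.6-fold above the nearer day 3 library (95% interval 23.2 to 50.6). The fibril genes showed the same order of libraries.

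Col2a1, the main fibrillar collagen of cartilage, had 0 and 28.2 CPM at day 3 and 568 CPM at day 5. Its partner Col9a1 had 0, 7.97 and 233 CPM in the same order. Col11a1, whose product nucleates the thin cartilage fibrils, was already present at day 3 with 306 and 446 CPM and reached 3352 CPM, a 7.51-fold difference (6.98 to 8.10). Acan, which encodes aggrecan, had 25.9 and 41.1 CPM at day 3 and 511 CPM at day 5. Matn3 and Matn4, which encode matrilins that bridge the fibrils, had 152 and 103 CPM at day 5 and at most 13.5 CPM in a day 3 library. For each of these genes day 5 was above both day 3 libraries, with count intervals that did not overlap.

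Enzymes and regulators of the list were higher as well. Papss2 had 64.7 and 49.0 CPM at day 3 and 383 CPM at day 5, and Xylt1, which starts the sugar chains of proteoglycans, had 224, 267 and 1009 CPM. Sox6, a transcription factor needed for chondrocyte differentiation, had 90.5, 226 and 1254 CPM. Trps1, a zinc finger repressor of the growth plate, had 1515, 1581 and 4428 CPM. Comp, Wwp2 and Chsy3 were also higher, at 402, 718 and 2097 CPM at day 5. Genes of late, hypertrophic cartilage were below the level limit. Col10a1 had 0, 3.68 and 19.4 CPM and Ihh 0, 0 and 3.21 CPM.

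Prg4, the only lower gene of the cartilage list, encodes lubricin of the joint surface. It had 789 and 248 CPM at day 3 and 13.2 CPM at day 5, and the uninjured libraries had 39.1 and 241.5 CPM. All day 3 values were above day 5, although the day 3 libraries differed from each other by more than 3-fold.

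Several genes outside the cartilage list stood among the 12 largest. Smpd3, a sphingomyelin phosphodiesterase needed for mineralization, had 8.62 and 6.74 CPM at day 3 and 180.2 CPM at day 5. Erg, an ETS transcription factor found in both endothelium and developing cartilage, had 15.1, 15.9 and 179 CPM. The 10 endothelial markers, Erg among them, summed to 69.0, 102 and 277 CPM. Of the other 9, Flt1 (0, 7.36 and 28.4 CPM), Tek (6.47, 8.58 and 14.9 CPM) and Emcn (2.16, 6.13 and 8.44 CPM) were highest at day 5. Cdh5, Tie1 and Ptprb were also highest at day 5, but like Kdr and Vwf they stayed at or below 8.78 CPM in all 3 libraries. Eng was between 21.95 and 39.8 CPM and lowest at day 5. Prkg2, a cGMP-dependent kinase of the growth plate, had 10.8, 18.4 and 154 CPM. Kcnip4, a potassium channel subunit, had 12.9 and 53.3 CPM at day 3 and 610.1 CPM at day 5, but uninjured replicate 1 already had 395 CPM. Slc24a2, a sodium, calcium and potassium exchanger, had 10.8, 12.3 and 209.55 CPM. The other 4 genes had at most 26.147 CPM in an uninjured library.

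**Figure D2:**
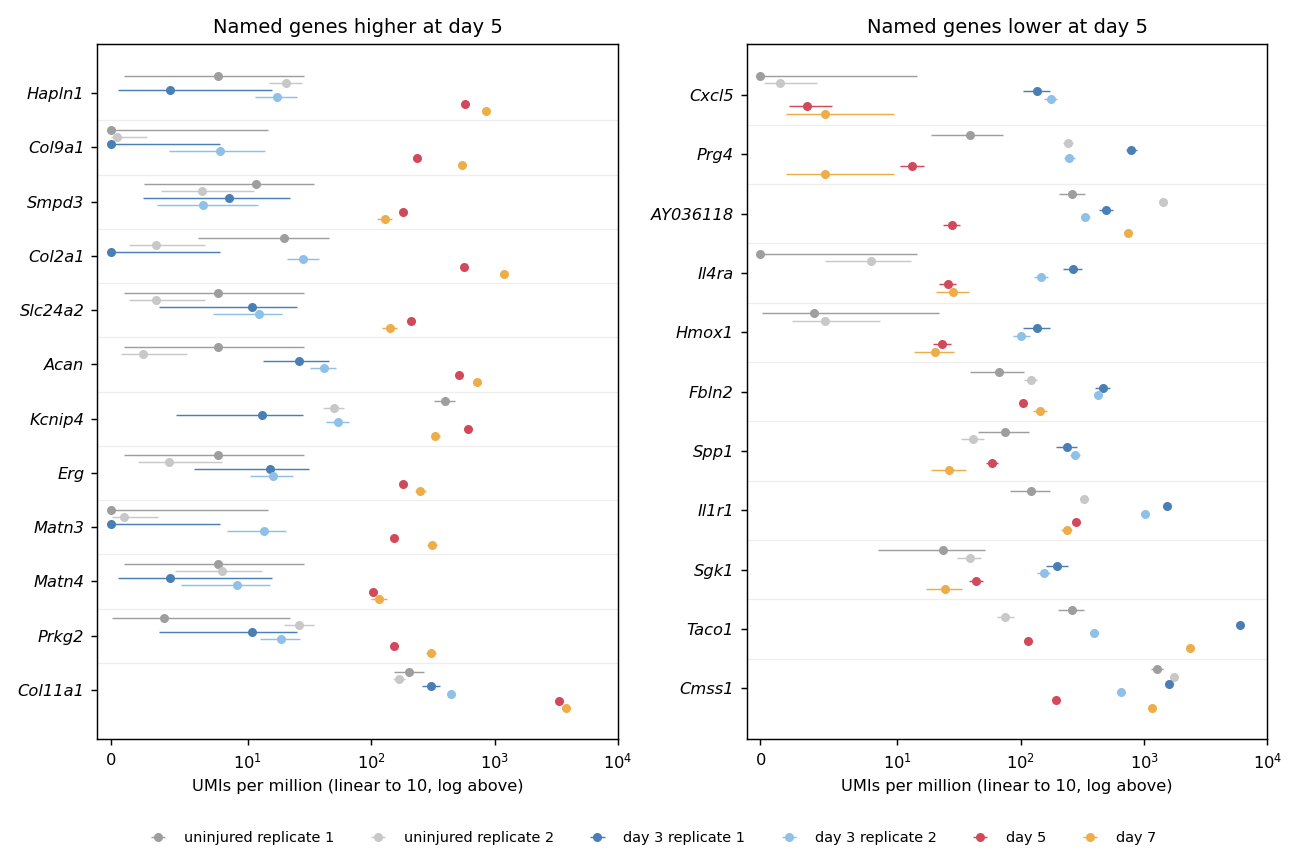
Level of named genes, 12 of them higher, in the mesenchymal nuclei of all 6 libraries, in CPM (linear to 10, log above). Points are libraries and bars exact 95% Poisson intervals of the counts. In the left panel the red day 5 points lie right of both blue day 3 points, and in the right panel left of them.

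Bone genes were higher less uniformly. Of 39 listed genes 21 were measured, of which 8 were higher (38.1%, against 4.16% of all measured genes), 1 lower and 12 neither. The median log2 ratio was 1.00, and 3 of the 8 passed the level limit only through day 5. The higher ones included Alpl, the alkaline phosphatase that frees phosphate for mineral (58.2, 52.1 and 120.4 CPM), and Enpp1, which makes the mineral inhibitor pyrophosphate (66.8, 82.7 and 327 CPM). Phex, an endopeptidase of osteoblasts and osteocytes, had 12.9, 10.4 and 64.7 CPM. Cdh11, the cadherin of mesenchymal and osteoblastic cells, had 285, 381 and 1206 CPM, and Pth1r, the parathyroid hormone receptor, 41.0, 76.6 and 197 CPM. The osteoblast transcription factors did not reach 2-fold, with 1412, 1188 and 1973 CPM for Runx2 and 36.7, 32.5 and 56.4 CPM for Sp7. The bone matrix gene Ibsp had 60.4, 115 and 159 CPM. The late osteoblast gene Bglap stayed at or below 6.08 CPM.

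Spp1 was the lower bone gene, with 237 and 276 CPM at day 3 and 58.8 CPM at day 5. This value rested on which nuclei were kept. With at least 4 mesenchymal UMIs, or without nuclei holding a UMI of an immune marker, Spp1 at day 5 lay between the day 3 libraries, and without Postn in the gate its log2 difference from the nearer day 3 library was -0.37 instead of -2.01. In day 3 replicate 1, 97.3% of its UMIs were in the 10% of nuclei richest in it. Osteopontin is also made by macrophages, and the 15 macrophage and monocyte markers summed to 313 and 722 CPM at day 3 and 221 CPM at day 5 in the kept nuclei. Immune barcodes held 424, 846 and 252 CPM of Spp1. Their part in the Spp1 difference was not tested beyond these values.

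Smaller shares of the fibrous matrix lists than of the cartilage list were higher. Of 7 measured fibrillar collagens, a list that leaves out the cartilage collagens Col2a1 and Col11a2 and the gate genes, Col11a1 alone was higher (14.3%). The gate genes chose the nuclei and were not counted. Of them, Postn had 780, 1132 and 2841 CPM in day 3 replicates 1 and 2 and day 5, Col1a2 1748, 3116 and 3701 CPM and Col3a1 1459, 2933 and 2148 CPM. Col1a1, the main collagen of bone and fibrous tissue, had 1265, 1757 and 2391 CPM, and Col5a2 1660, 2985 and 2997 CPM. Of 13 other measured collagens, without the Col9 genes, 4 were higher (30.8%, against 4.16% of all measured genes). Of the 4, 2 passed the level limit only through day 5. Among the 4 were Col12a1, which decorates fibrils under tension (601, 814 and 1763 CPM), and Col8a1, a short network collagen (218, 915 and 1869 CPM). With muscle transcripts limited to under 0.1%, 1 collagen of this list was called, and likewise 1 without the nuclei holding cartilage or bone UMIs described below.

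Of 28 measured matrix glycoproteins and proteoglycans, 6 were higher (21.4%, against 4.16% of all measured genes) and 2 lower (7.14%, against 2.54%). Of the 6, 2 passed the level limit only through day 5, and 1 of the 2 lower ones only through day 3. Smoc1, a calcium-binding matricellular protein, had 53.9, 47.2 and 334 CPM, and Fbn2, a microfibril protein of developing tissue, 147, 182 and 532 CPM. Tnn, a tenascin of periosteum and bone, had 228, 95 and 689 CPM. Fbln2, an elastic fibre protein, was lower, with 463 and 425 CPM at day 3 and 105 CPM at day 5 (4.05-fold, 3.63 to 4.52). Both of its day 3 values also exceeded the 66.5 and 121 CPM of the uninjured libraries.

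Among guidance cues, receptors and ligands that steer migrating cells and axons, 8 of 21 were higher and none lower. This was 38.1%, against 4.16% of all measured genes, and the median log2 ratio was 1.04. Of the 8, 3 passed the level limit only through day 5, where they were high. The 8 were Sema3c, Sema3d, Robo1, Robo2, Unc5c, Efna5, Epha3 and Epha4. Epha3, an ephrin receptor, had 166, 308 and 1382 CPM, and Unc5c, a netrin receptor, 10.8, 37.4 and 244 CPM. The count was 12 with TMM scaling, 11 with DESeq2's size factors and 6 with the reduced totals.

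In all, 5 of 12 measured imprinted growth genes were higher (41.7%, against 4.16% of all measured genes) and none lower. Of the 5, 2 passed the level limit only through day 5. H19, a long non-coding RNA of growing tissue, had 36.6, 65.0 and 203 CPM. Peg3 and Plagl1, zinc finger factors of the same network, had 101, 87.6 and 313 CPM and 36.6, 60.7 and 188 CPM. Zim1 and Gnas were the others. No scaling alternative lowered this count below 5.

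Most signalling genes were neither higher nor lower, as were most of all measured genes, of which 4.16% were higher and 2.54% lower. Of 18 measured Wnt genes 4 were higher (22.2%) and 1 lower (5.56%), and 3 of the 4 passed the level limit only through day 5. Rspo2, a secreted amplifier of Wnt signals, had 43.1 and 44.1 CPM at day 3 and 284 CPM at day 5, and its receptor Lgr4 71.1, 87.6 and 226 CPM. Ror1, a Wnt5a receptor, was lower at day 5 with 1421, 948 and 466 CPM, but this call was lost with TMM scaling and with DESeq2's size factors, where no Wnt gene was lower.

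Of 28 growth factor genes (FGF, PDGF, IGF and VEGF families with related ligands), 4 were higher (14.3%) and 1 lower (3.57%). Of the 4, 1 passed the level limit only through day 5, and the lower gene passed only through day 3. Igf1, a growth factor for cartilage and bone, had 265, 338 and 874 CPM. Fgf2, the lower one, had 129, 75.4 and 33.4 CPM. Of 8 Hedgehog genes Ptch1, receptor and target of the pathway, was higher with 30.2, 79.1 and 312 CPM, while its uninjured levels were 238.5 and 176 CPM. None of the 14 measured Notch genes was called, near the shares over all measured genes, and their median log2 ratio was 0.065. Against day 3 replicate 1 alone 2 of them were higher and 1 lower.

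Of 29 BMP and TGF-beta genes 1 was higher (3.45%, against 4.16% of all measured genes), Tgfb2 with 109.9, 108.5 and 259 CPM. Tgfbr3 (729, 781 and 352 CPM) and Ltbp2 (287, 215 and 107 CPM) were lower, but no gene of this list was lower with TMM scaling or DESeq2's size factors. The BMP receptors Bmpr1a, Bmpr2 and Acvr1 were not called.

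The study had named ligands of the fibrogenic cells and regulons of its trajectories from these libraries, so counts over those lists are no independent evidence. Gate genes, such as Postn and Pdgfra, were left out of them. Of 8 ligands, 4 were higher at day 5, namely Ptn, Angptl2, Pdgfd and Tgfb2. Ptn, a heparin-binding growth factor, had 58.2, 81.5 and 313 CPM. Of 13 matrix genes 5 were higher (38.5%, against 4.16% of all measured genes), among them Tll1, which processes procollagen. Of the 5, 1 passed the level limit only through day 5. Of 10 receptors none was higher and 1 was lower (10.0%, against 2.54% of all measured genes), Ncl with 168, 123 and 58.6 CPM. The study grouped its factors by regulon activity, while the values here are levels of their RNA. Of 18 measured factors of its fibrogenic group 1 was lower (5.56%, against 2.54%), Junb with 99.2, 140 and 39.0 CPM, and none was higher. Junb passed the level limit only through day 3. Of 9 factors of its first chondrogenic group 1 was higher (11.1%, against 4.16%), the clock factor Npas2 with 162, 113 and 414 CPM. Of 13 of its second, Sox6, Mef2c and Peg3 were higher (23.1%, against 4.16%).

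Inflammatory genes were lower at day 5 or not called. Of 48 mediators 13 were measured, of which 4 were lower (30.8%, against 2.54% of all measured genes) and none was higher, with a median log2 ratio of -0.63. Of the 4, 3 passed the level limit only through day 3. The count of lower ones was 3 with TMM scaling and 4 with DESeq2's size factors. Cxcl5, a neutrophil-attracting chemokine, had 136 and 175 CPM at day 3 and 3.38 CPM at day 5, 40.2-fold lower than the nearer day 3 library (24.0 to 70.2). The uninjured libraries had 0 and 1.43 CPM and day 7 had 4.73 CPM, so the day 3 values stood alone. In immune barcodes it had 0, 15.2 and 0 CPM in the order day 3 replicate 1, day 3 replicate 2 and day 5.

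Il1r1, the interleukin 1 receptor, had 1541 and 1019.9 CPM in day 3 replicates 1 and 2 and 278 CPM at day 5. Il33, an alarmin stored in nuclei, had 131.5 and 63.7 CPM at day 3 and 25.5 CPM at day 5, and Csf1, the macrophage growth factor, 45.3, 88.9 and 19.1 CPM. The stromal Osmr and Il6st did not reach 2-fold, and Ptgs2 was between 30.2 and 68.7 CPM in all 3 libraries. Il4ra, the interleukin 4 receptor chain, had 265, 146 and 25.5 CPM, with at most 8.08 CPM in an uninjured library. Hmox1, a heme-degrading enzyme induced by blood breakdown, had 136, 101 and 23.0 CPM. Sgk1, a stress-induced kinase, had 198, 153 and 43.4 CPM.

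Of the 15 macrophage and monocyte markers, 10 were below both day 3 libraries at day 5 in the kept nuclei, 4 lay between them and 1, Mertk, was above both (73.3, 71.7 and 106.2 CPM). Of all 4445 measured genes, 1421 were below both. Only 3 of the 15 markers reached the level limit, so most of these orders rest on low counts. Mrc1, a macrophage receptor, was itself called lower (64.7, 91.9 and 27.02 CPM), as was the leukocyte gene Inpp5d (66.8, 78.5 and 16.2 CPM). Lyz2 had 4.31, 108 and 5.57 CPM, and the 10 neutrophil markers summed to 12.9, 178 and 10.98 CPM. Immune barcodes held more of Hmox1 than the kept nuclei, with 1301, 248 and 559.5 CPM, and of Il4ra, with 475, 248 and 133 CPM. Among nuclei without a UMI of any immune marker (93, 37 and 665 nuclei), 4 inflammatory genes were lower and 273 genes higher and 143 lower in all, of which 138 and 56 were among the 185 and 113. The part of immune transcripts in the other decreases was not tested.

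Another set of lower genes was high in the day 7 library and low at day 5, as was a single abundant transcript. Gm42418, which overlaps a ribosomal RNA repeat, had 148610 CPM in day 3 replicate 1, 9096 CPM in replicate 2, 2262 CPM at day 5 and 72422 CPM at day 7. Gm26917, Lars2, AY036118, Cmss1 and Taco1 were lower at day 5 as well. Taco1 had 5934.5, 393 and 115 CPM. The day 7 library had 2375 CPM of Taco1, above the day 5 level and in the order of Gm42418. For 3 further lower genes (AC149090.1, CAAA01118383.1 and Tmlhe) the day 5 library alone listed 0 UMIs, while each of the other 5 libraries had at least 39.0 CPM. The gene lists deposited with the 3 compared libraries differ in length (32285, 31055 and 32287 genes), and without these 3 genes 110 were lower.

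Most proliferation genes were below the day 3 levels by less than 2-fold. Of 30 measured, 27 were below both day 3 libraries, against 1421 of all 4445 measured genes. Of the 30, 15 passed the level limit only through day 3, where they were higher, which favours this order. In the list 1 gene, Mki67, was called lower (105.6, 99.9 and 39.7 CPM). This was 3.33%, against 2.54% of all measured genes, and TMM scaling left none called. The median log2 ratio was -0.54 and stayed between -0.84 and -0.12 under all alternatives tried. Top2a had 147, 163 and 77.0 CPM. The uninjured libraries had 11.7 and 1.90 CPM of Mki67, below every fracture library. In the hypoxia and glycolysis list 1 of 15, the hexokinase Hk2, was lower (77.6, 54.5 and 25.8 CPM). It passed the level limit only through day 3.

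The remaining lists held few called genes each, and their shares stand beside 4.16% higher and 2.54% lower over all measured genes. Of 20 collagen-modifying and crosslinking genes, P3h2, Tll1 and Adamts3 were higher (15.0%) and Loxl3 lower (5.0%). Of 21 proteases and inhibitors 3 were higher (14.3%), and 2 of these passed the level limit only through day 5. They were Mmp14, which cleaves collagen at the cell surface, Adamts17 and Adamts18. Of 9 hyaluronan genes Cemip, a hyaluronan-degrading protein, and Hapln1 were higher (22.2%) and the scavenger receptor Stab1 lower (11.1%). Cemip and Hapln1 passed the level limit only through day 5, and Stab1 only through day 3. Of 25 contractile and myofibroblast genes 1, Fhod3, was higher (4.0%) and 2 were lower (8.0%), among them Ankrd1. Of these 2, 1 passed the level limit only through day 3. Of 14 limb and mesenchyme factors Foxp2 was higher, of 13 genes of resting stroma Sema3c, of 7 clock genes Npas2 and of 3 tendon genes Fmod. Fmod passed the level limit only through day 5. Of 13 immediate-early and stress genes Junb and Hmox1 were lower (15.4%), and both passed the level limit only through day 3.

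**Figure D3:**
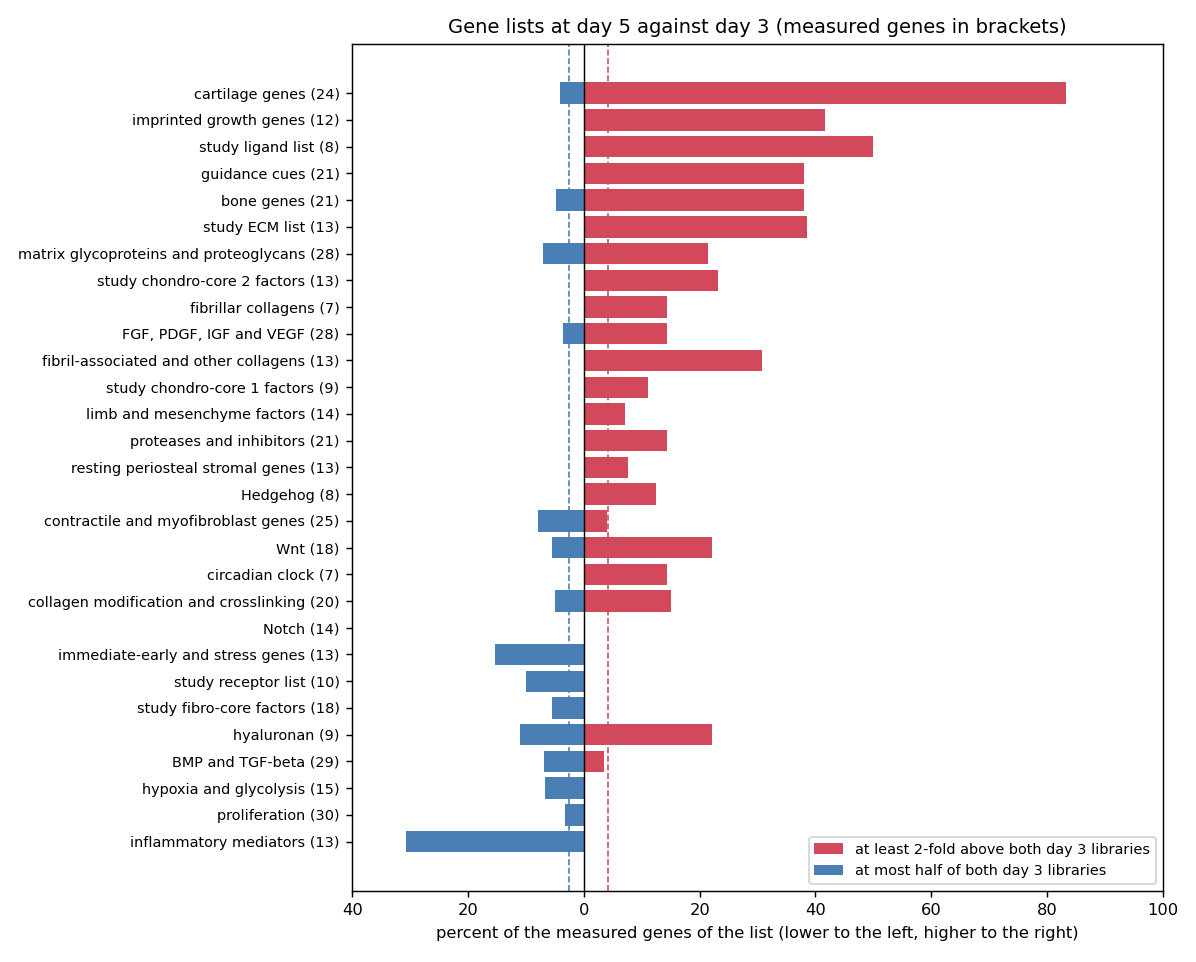
Share of each list's measured genes that were at least 2-fold higher (red, to the right) or lower (blue, to the left) at day 5 than both day 3 libraries, with the number of measured genes in brackets. Lists with at least 7 measured genes are shown, ordered by their median log2 ratio, and dashed lines mark the shares over all measured genes (4.16 and 2.54%). Cartilage genes reach 83.3% higher and inflammatory mediators 30.8% lower.

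Levels of summed nuclei do not tell more nuclei with a transcript from more transcripts per nucleus, so each nucleus was thinned to 500 UMIs and the share with a UMI counted. Thinning kept all but 1 nucleus of day 3 replicate 2 and 3 of day 5. Col11a1 was found in 12.7 and 9.01% of nuclei in day 3 replicates 1 and 2 and in 45.3% at day 5 (exact 95% binomial interval 42.6 to 48.03). Without thinning the shares were 22.7, 22.8 and 71.7%. Acan was found in 2.00, 2.10 and 13.6% of thinned nuclei, Kcnip4 in 1.33, 1.80 and 10.3% and Hapln1 in 0.667, 1.20 and 6.44%. Endothelial barcodes of day 5 had Acan in 2.13% and Hapln1 in none of 47, which allows a share of up to 6.38% and so does not separate it from the mesenchymal share. At full depth these barcodes held 2 UMIs of Hapln1, or 15.6 CPM. Their median depth was 2106 UMIs, against 3382 in the kept mesenchymal nuclei.

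Col2a1 reached 9.89% of thinned mesenchymal nuclei at day 5 (8.32 to 11.6) but was also found in 3 of the 47 endothelial barcodes (6.38%), so part of this share can be background. Its UMIs were concentrated, with 93.2% of them in the 10% of nuclei richest in it. For Hapln1 this share was 97.8%, for Col11a1 63.9% and for Sox6 74.1%. Day 5 nuclei with a UMI of Hapln1 held 16.6 UMIs of it on average and those of day 3 replicate 2 held 1.75.

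Several lower genes were also found in fewer nuclei. Il1r1 was found in 40.7 and 21.9% of thinned nuclei at day 3 and 9.43% at day 5, Il4ra in 12.7, 5.71 and 1.99%, and Cxcl5 in 8.00, 6.61 and 0.230%. Prg4 was found in 19.3, 6.31 and 0.613% of them. Spp1 was found in 4.00% in day 3 replicate 1 (1.48 to 8.503), 19.5% in replicate 2 and 3.30% at day 5 (2.40 to 4.41). For Spp1 and Hmox1 the interval at day 5 overlapped that of day 3 replicate 1. These intervals count nuclei within 1 library and do not measure the spread between libraries.

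**Figure D4:**
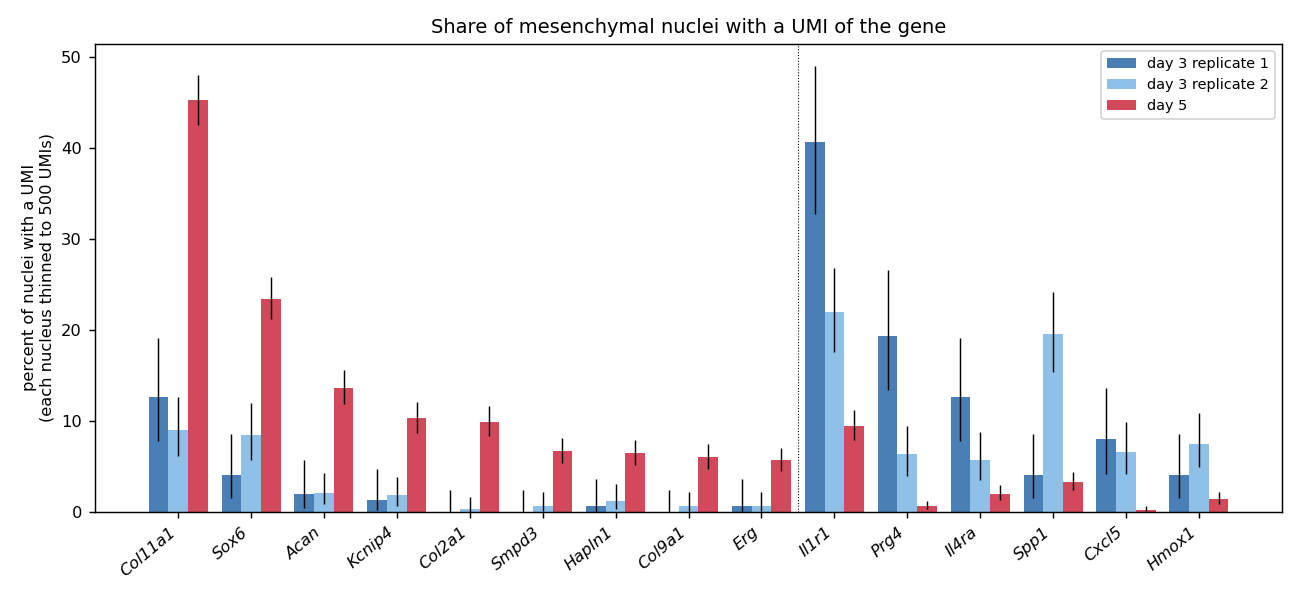
Percent of mesenchymal nuclei with at least 1 UMI of each gene after thinning to 500 UMIs per nucleus, with exact 95% binomial intervals. Genes higher at day 5 are left of the dotted line and lower genes right of it. Day 5 is above both day 3 libraries for the left genes and below both for the right genes, although its interval overlaps that of day 3 replicate 1 for Spp1 and Hmox1.

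A UMI of Acan, Col2a1, Sp7, Ibsp or Alpl, genes of cartilage and bone cells, was held by 22 of 150 and 58 of 334 nuclei at day 3 (14.7 and 17.4%) and by 786 of 1308 at day 5 (60.1%, 57.4 to 62.8). These day 5 nuclei were deeper, with a median of 4338.5 UMIs against 2427 for the others. When all such nuclei were left out of the 3 libraries, 109 of the 185 higher genes still differed at least 2-fold from both day 3 libraries and 174 kept their direction. Of the 113 lower genes 61 kept the 2-fold difference and all 113 the direction.

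Part of the cartilage and bone lists defined these nuclei, so a smaller difference without them follows from the choice. Without them the list's median log2 ratio was 0.80 and 3 of 24 were called higher. Of the 18 higher cartilage genes other than Acan and Col2a1, 9 kept a 2-fold difference at whatever level and 17 their direction. Hapln1 had 16.5 CPM at day 5 in the remaining nuclei, against 576 CPM in all, and Phex 13.5 against 64.7 CPM. Sox6 had 71.3 and 162 CPM at day 3 and 299 CPM at day 5, less than 2-fold above day 3 replicate 2. Col11a1 kept a 2-fold difference, with 191, 282 and 993 CPM. Of the bone genes 2 of 21 stayed higher, with a median log2 ratio of 0.03.

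Other genes also differed at least 2-fold in the remaining nuclei, some of them by nearly as much as in all nuclei. Rspo2 had 48.4 and 53.8 CPM at day 3 and 280.4 CPM at day 5, and Cdh11 232, 336 and 1131 CPM. Fbn2 had 148, 189 and 510.2 CPM and Igf1 275, 339 and 884 CPM. Epha3 had 127, 285 and 859 CPM, a smaller difference than in all nuclei. Of the 8 higher guidance genes 6 still differed at least 2-fold, all but Robo1 and Sema3d. Il1r1 was lower in these nuclei as well, though by less than in all nuclei, with 1665, 1129 and 412 CPM. Cxcl5 had 143, 200.4 and 4.70 CPM.

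**Figure D5:**
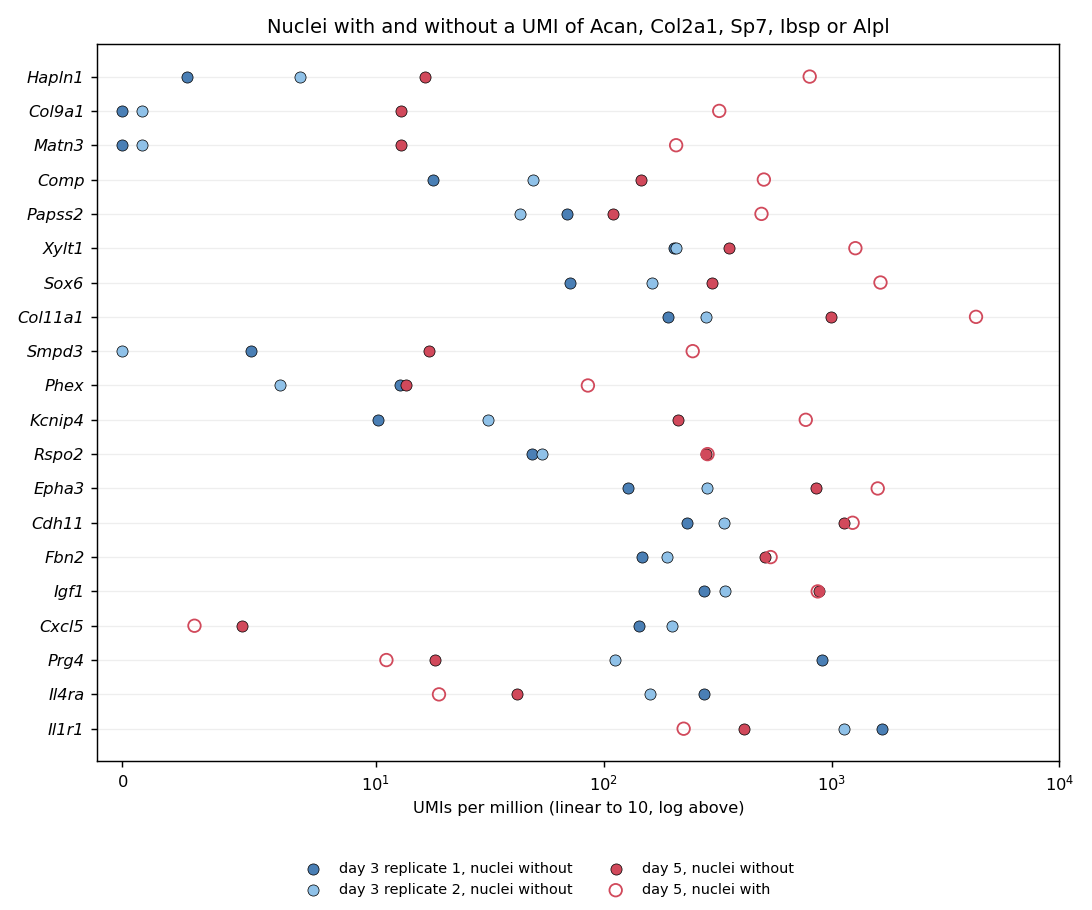
Level in nuclei without (filled) and, for day 5, with (open) a UMI of Acan, Col2a1, Sp7, Ibsp or Alpl, in CPM (linear to 10, log above). Hapln1, Col9a1, Matn3, Smpd3 and Phex are at 17.05 or less at day 5 without such nuclei, while Rspo2, Cdh11, Fbn2 and Igf1 have nearly equal filled and open day 5 points.

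UMIs of cartilage and bone genes were partly counted under the same barcodes. After thinning, 22.3% of day 5 nuclei held a UMI of Acan, Col2a1, Hapln1, Col9a1 or Matn3, 16.0% one of Smpd3, Phex, Alpl, Ibsp or Sp7, and 6.13% one of each group. The corresponding shares were 2.67, 5.33 and 0.667% in day 3 replicate 1 and 3.90, 6.01 and 1.20% in replicate 2. At full depth 363 day 5 nuclei held at least 3 UMIs of the cartilage group and 225 of the bone group, with 103 in both. Doublets were kept here, and Scrublet marked 1, 0 and 30 of the kept nuclei in day 3 replicates 1 and 2 and day 5. Day 5 endothelial barcodes held 31.3 CPM each of Acan and Col2a1, 15.6 CPM of Hapln1, 7.82 CPM each of Col9a1 and Matn3, and 0 of Smpd3. The part of doublets, background RNA and unrelated detection in these shares was not tested.

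Uninjured levels of the higher genes varied. The day 5 value that chose the 185 enters their comparison with uninjured periosteum too, so its counts are a description. At day 5, 113 were at least 2-fold above both uninjured libraries (61.1%, against 12.0% of all measured genes) and 72 were not. Cartilage genes such as Hapln1 (7.82 and 20.4 CPM in uninjured replicates 1 and 2) were in the first group. Sox6 belonged to the second, with 1048 and 573 CPM in the uninjured, 90.5 and 226 CPM in the day 3 libraries and 1254 CPM at day 5. Unc5c (184, 144, 10.8, 37.4 and 244 CPM) and Prkg1, another cGMP-dependent kinase (3613, 1964, 670.4, 763 and 2333 CPM), were likewise lower in both day 3 libraries than in the uninjured libraries and at day 5, although Prkg1 at day 5 lay between the uninjured libraries.

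At day 7, 92 of the 185 higher genes (49.7%) were at least 2-fold above both uninjured libraries, against 8.19% of all measured genes. Hapln1 had 858 CPM at day 7, Col2a1 1188 CPM, Col9a1 548 CPM and Acan 714 CPM, each above its day 5 level. Others were lower at day 7 than at day 5, such as Col8a1 with 660 CPM after 1869 and Tnn with 350.2 after 689. Of the 113 lower genes, 44 had both day 3 levels at least 2-fold above both uninjured libraries, among them Cxcl5, Il4ra and Hmox1, against 7.00% of all measured genes. At day 5, 38 were at most 0.5 times both uninjured libraries (33.6%, against 5.13% of all measured genes). Both counts use values that chose the genes. Zbtb16, a zinc finger factor, belonged to the latter, with 1881 and 1057 CPM in the uninjured, 431 and 124 CPM in the day 3 libraries and 40.5 CPM at day 5.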

How the data were processed

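The authors deposited a matrix of unnormalized UMI counts for each library, for which Cell Ranger had aligned the reads, introns included, to mm10 (version 6.0.0 for uninjured replicate 1, day 5 and day 7, 7.1.0 for the others). Counts were limited to the 30406 gene IDs listed for every library, with symbols from the day 5 list, and summed over the kept nuclei. The members and gene lists were chosen with earlier results of these data known. The 12 largest differences in each direction with at least 100 CPM (at day 5, or in both day 3 libraries), other than gate, mitochondrial, ribosomal, numbered Gm and Rik genes, are the named genes, and list members and cell markers were named as well. Tsc22d2, Smim14, Pi15 and Zfp639 (at the threshold), Gm42418, Gm26917, Lars2, AC149090.1, CAAA01118383.1, Tmlhe, Inpp5d, Prkg1 and Zbtb16 were named after their values were seen. Some genes that meet these rules are not reported here. Log2 ratios of lists add 10 CPM, and values under 3 UMIs were set to 3 in folds. The seed was fixed for thinning. Doublets were kept in the main values. Computations used Python 3.11.15, scanpy 1.11.5, edgeR 4.0.16 and DESeq2 1.42.0 (scaling factors only), and the calls were tested on simulated data. Motifs were searched on both strands, and a symbol listed for 2 gene IDs, Aldoa, was left out of lists.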

Additional observations from a re-analysis of the deposited data

How the results depend on the processing

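The 185 higher and 113 lower genes were counted under 21 alternatives, 3 of them chosen after seeing the data, and the count stayed within 1.5 times in 15 and 13. TMM scaling gave 279 and 57, DESeq2's size factors 70 lower genes, and totals without Gm42418, the genes moving with it, Malat1 and mitochondrial genes 181 lower genes. A minimum of 10 CPM gave 348 and 429, of 200 CPM 91 and 33, and no minimum 3111 and 1083, by their construction. Without the muscle limit 321 genes were higher, of which 158 were among the 185, while 48 of the 113 lower genes were found again, and the cause was not tested. Against 1 day 3 library alone the counts were 257 (without day 3 replicate 1) to 629 (without replicate 2) higher and 309 (without replicate 2) to 424 (without replicate 1) lower. With each barcode thinned to 1000 UMIs before the gate, 142 and 61 of the calls remained. Scrublet marked 0.797, 0.232 and 3.92% of barcodes in day 3 replicates 1 and 2 and day 5, below the expected 6%, and removed 31 kept nuclei. The 24 named genes were chosen for large differences in these counts, and the alternatives reuse the counts, so a kept direction is no separate evidence. None of the 24 changed direction in 502 comparisons, of which 363 stayed within the counting interval. A difference of 0 was not counted as a change of direction. Acan and Col2a1 have no value without nuclei holding them. Spp1 had a log2 difference of 0 under 2 alternatives. No paired analysis was possible because day 5 has 1 library.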
